A study of Bombyx mori with 4 samples.

Results

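Forkhead box protein O (FOXO), phosphoenolpyruvate carboxykinase (PEPCK) and insulin-related peptide binding protein (IRPBP) were followed on silkworm oligonucleotide arrays through their probes sw09818, sw19873 and sw06810. These 3 of 23229 gene probes were selected on their log2 ratios, since each rose by more than 2.0-fold on every array, and their log2 ratios on these arrays are given as a description and carry no test. The cells were BmN4-SID1, a cultured line of silkworm (Bombyx mori) ovary that takes up double-stranded RNA from its medium. The compared groups were BmSCE RNAi, BmESC RNAi, BmPHO RNAi and BmSCM RNAi, each on day 7 and each set against EGFP RNAi, the control, with double-stranded RNA against green fluorescent protein. In the fly, SCE is the ubiquitin ligase of the PRC1 complex, ESC a subunit of the PRC2 methyltransferase, PHO a protein that binds DNA, and SCM a protein that binds PRC1. RNA of 3 experiments was pooled and hybridized once per knockdown, the knockdown labelled with Cy5 and EGFP RNAi with Cy3. No dye swap was made, the knockdowns share their control treatment, and no value has a replicate check. Where 4 values follow each other without names, they stand in the order BmSCE, BmESC, BmPHO, BmSCM.

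Insulin and insulin-like hormones act through a receptor, phosphoinositide 3-kinase and the kinase Akt, which phosphorylates FOXO and keeps it out of the nucleus. When the hormone is low, as in fasting, FOXO enters the nucleus and switches on genes of stress resistance and fuel supply. PEPCK turns oxaloacetate into phosphoenolpyruvate, the step that leads carbon from the citric acid cycle towards glucose. IRPBP was described as a secreted insulin-binding protein in the moth Spodoptera frugiperda, and the related fly protein Imp-L2 binds insulin-like peptides outside the cell and dampens their signal.

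The array names rest on matches to proteins of other species. The FOXO probe sw09818 is annotated as a match to the forkhead transcription factor O of a sea urchin (array gene Bmb036586), the PEPCK probe sw19873 as a match to bovine mitochondrial PEPCK (Bmb030383), and the IRPBP probe sw06810 as a match to the Spodoptera frugiperda protein (Bmb035169). The study placed them on the gene numbers BGIBMGA008092, BGIBMGA004277 and BGIBMGA008146. The place of each 70-base probe within its gene was not analysed here. For PEPCK and IRPBP the study designed RT-PCR primer pairs on the same gene numbers. They are shown, 5′ to 3′, as the study listed them for these gene numbers. They were not aligned to a transcript or to the probes, and the RT-PCR itself was not analysed here.
PEPCK sense primer: catgatagacggtgagtgggagagctcgga
PEPCK antisense primer: ctcctctttgaagtacttctcgatggcgtc
IRPBP sense primer: actggctcgcaattagagctggaatgtctg
IRPBP antisense primer: tacttgcttggcttgaccgggtaaatgaag
Each of these primers is 30 bases long, with a GC content of 56.7% and 50% in the PEPCK pair and of 50% and 46.7% in the IRPBP pair.

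Intensities are in arbitrary units after subtraction of local background, and a probe is called measured where its brighter channel reached 400. Measured probes numbered 7834 in BmSCE RNAi, 9869 in BmESC RNAi, 7434 in BmPHO RNAi and 8310 in BmSCM RNAi. Their log2 ratios spread more widely on the BmPHO and BmSCM arrays (SD 0.83 and 0.76) than on the BmSCE and BmESC arrays (SD 0.45 and 0.55). A match to extra sex combs (sw12637) read 486 in BmESC RNAi against 2311 in EGFP RNAi, a log2 ratio of -2.61, and stayed between -0.68 and 0.13 in the other knockdowns. A match to sex comb on midleg (sw13820) was not measured on any array, so the loss of BmSCM could not be followed there. In place of replicates, 2 measures of spread are given. Silkworm control probes printed many times had a spot-to-spot SD of 0.07 to 0.42 of the log2 ratio within an array. The EGFP RNAi channel, hybridized on all 4 arrays, gave for each brightness class a median SD over the arrays, which was 0.13 on the log2 scale for probes as bright as PEPCK, 0.46 for FOXO and 0.50 for IRPBP. This second value is called the spread below. It covers labelling, hybridization and scanning of the control, and not the variation between cultures. The spread is the SD of 1 channel, whereas a difference between 2 log2 ratios draws on both channels of 2 arrays. A difference beyond the spread is therefore not shown to exceed the error of measurement.

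PEPCK lay far above 400 in both channels and was higher in every knockdown. Its Cy5 intensity was 19651 in BmSCE RNAi, 13016 in BmESC RNAi, 34257 in BmPHO RNAi and 18786 in BmSCM RNAi, against 4276, 3958, 3758 and 3891 in EGFP RNAi on the same arrays. Every knockdown value thus lay above every EGFP RNAi value, and the EGFP RNAi channel differed by 1.14-fold between its highest and lowest array. No blank spot of 382 was as bright as PEPCK in either channel of any array. The log2 ratios over EGFP RNAi reached 1.95 (BmSCE), 1.33 (BmESC), 3.24 (BmPHO) and 2.25 (BmSCM), that is 3.85-, 2.52-, 9.42- and 4.75-fold. PEPCK ranked 14th of the measured probes in BmSCE RNAi, 215th in BmESC RNAi, 23rd in BmPHO RNAi and 80th in BmSCM RNAi, counted from the highest ratio.

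The knockdowns separated for PEPCK by more than the spread of 0.13, with a reservation for BmSCM and BmSCE RNAi. BmPHO RNAi exceeded BmSCM RNAi by 0.99 on the log2 scale, BmSCM RNAi exceeded BmSCE RNAi by 0.30, and BmSCE RNAi exceeded BmESC RNAi by 0.61. From the highest to the lowest the difference was 1.90, or 3.74-fold. The Cy5 channels alone, quantile normalized, gave the same order, with differences of 0.79, 0.30 and 0.49 between the same neighbours and 1.59 between BmPHO and BmESC RNAi. The separation of BmSCM from BmSCE RNAi was 0.05 both with median centring and in the authors' values, within the spread, and as raw intensities BmSCE RNAi lay above BmSCM RNAi, so the order of that pair rests on the normalization. Other probes carry the PEPCK name on this array. The silkworm mitochondrial PEPCK probe sw18325 (LOC733130 in RefSeq) was measured in BmESC RNAi alone, with an intensity of 444 against 233 in EGFP RNAi and a log2 ratio of 0.65. A further match, sw21451, was not measured on any array, with intensities of 45 to 146 in the knockdowns and of 29 to 51 in EGFP RNAi. The rise under the PEPCK name was therefore read from 1 probe.

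**Figure D1:**
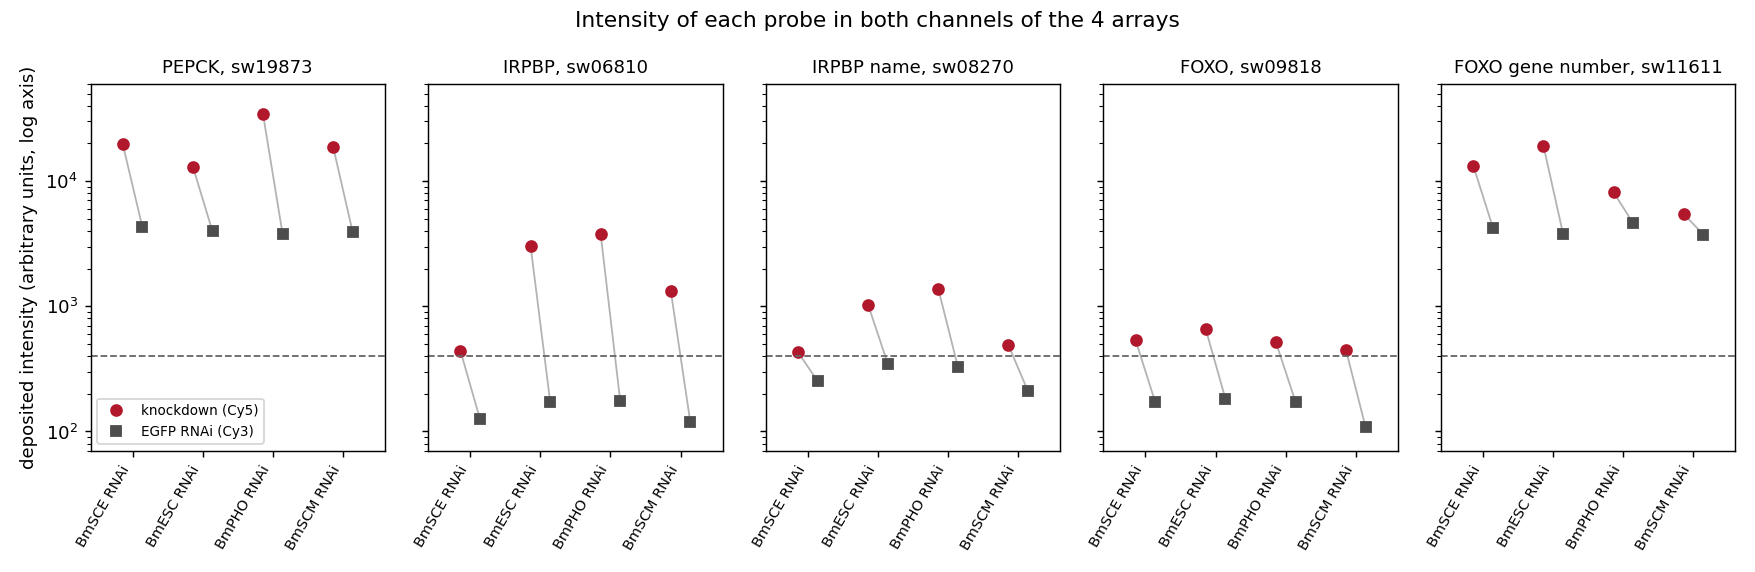
Deposited intensities (arbitrary units, log axis) of 5 probes on the 4 arrays, with the knockdown in Cy5 (red circles) left of EGFP RNAi in Cy3 (grey squares), 1 spot per point. The dashed line marks 400, and the EGFP RNAi values of sw06810, sw08270 and sw09818 lie below it on every array while those of sw19873 and sw11611 lie at 3743 or higher.

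IRPBP had the widest range of ratios of the 3 listed probes. The knockdown intensity of sw06810 was 442 in BmSCE RNAi, 3053 in BmESC RNAi, 3776 in BmPHO RNAi and 1332 in BmSCM RNAi, against 125, 173, 174 and 118 in EGFP RNAi. The probe was thus dim in the control on all arrays, well above 400 in 3 knockdowns, and close to 400 in BmSCE RNAi. Among 382 blank spots, 1 on each of the BmESC, BmPHO and BmSCM arrays was as bright in Cy5, and 40 were on the BmSCE array. The log2 ratios were 1.48, 3.81, 4.28 and 2.86 under RNAi of BmSCE, BmESC, BmPHO and BmSCM. The EGFP RNAi side of these ratios lay at the level of blank spots, of which 96, 136, 64 and 78 were as bright in Cy3, so the ratios were not ranked among those of other probes.

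Because EGFP RNAi lay below 400, the fold is a lower bound, taken from the normalized Cy5 level over the lowest normalized Cy3 level among probes that reached 400 on that array. IRPBP was at least 6.86-fold higher in BmESC RNAi, at least 8.66-fold in BmPHO RNAi and at least 2.26-fold in BmSCM RNAi. On the BmSCE array its normalized level of 389 was under that limit of 433, so no fold is given there, and with a floor of 200 in place of 100 under the intensities its log2 ratio was 0.86. BmPHO RNAi exceeded BmESC RNAi by 0.47, which is within the spread of 0.50. BmESC RNAi exceeded BmSCM RNAi by 0.94 and BmSCM RNAi exceeded BmSCE RNAi by 1.38, both beyond it. In the Cy5 channels alone BmPHO and BmSCE RNAi were 3.29 apart, against 2.79 in the ratios.

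A second probe with the same match, sw08270 (array gene Bmb012355), was not among the listed probes. Its intensity was 430 in BmSCE RNAi, 1025 in BmESC RNAi, 1381 in BmPHO RNAi and 490 in BmSCM RNAi, against 252, 348, 329 and 210 in EGFP RNAi. Its log2 ratios were 0.50, 1.24, 1.89 and 0.56, past 2-fold in BmESC and BmPHO RNAi. In the authors' values they were 0.04, 0.96, 1.09 and 0.25, past 2-fold in BmPHO RNAi alone, and with median centring the BmSCM value was 1.07. The knockdowns stood in the order of sw06810, with BmPHO highest and BmSCE lowest, although BmSCM and BmSCE RNAi differed by 0.07, within the spread of 0.31. The ratio of sw06810 exceeded that of sw08270 by 0.99 in BmSCE RNAi and by 2.30 to 2.57 in the other knockdowns. As bounds, sw08270 was at least 2.31-fold higher in BmESC RNAi and at least 3.22-fold in BmPHO RNAi. Whether both probes read 1 gene or 2 is not settled by their annotation, which gives them different array genes.

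FOXO was dim in both channels and had nearly even ratios across knockdowns. The intensity of sw09818 was 534 in BmSCE RNAi, 654 in BmESC RNAi, 517 in BmPHO RNAi and 447 in BmSCM RNAi, against 171, 183, 173 and 108 in EGFP RNAi. All knockdown values lay above all EGFP RNAi values, yet both were near the level of the brighter blank spots. Of 382 blanks, 29, 42, 3 and 7 were as bright as FOXO in Cy5 on the BmSCE, BmESC, BmPHO and BmSCM arrays, and 89, 135, 64 and 78 in Cy3. The log2 ratios were 1.35, 1.55, 1.33 and 1.37. As bounds, FOXO was at least 1.13-fold higher in BmSCE RNAi, at least 1.38-fold in BmESC RNAi and at least 1.24-fold in BmPHO RNAi, and no fold could be given in BmSCM RNAi.

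All pairs of knockdowns differed by 0.22 or less for sw09818, within the spread of 0.46, so the ratios give no order. In the Cy5 channels alone BmSCM RNAi was the lowest, with BmSCM minus BmPHO RNAi at -0.51, beyond that spread, and BmSCM minus BmSCE RNAi at -0.45, just within it, while BmESC minus BmPHO RNAi was -0.25. The 2-fold call itself depended on the processing on 2 arrays. In BmSCE RNAi the authors' own normalized ratio gave 0.99, and in BmSCM RNAi a floor of 200 gave 0.03.

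The gene number of FOXO has another probe, sw11611, far above 400 in both channels, which the study lists as fkhr and the array annotates only by a mosquito protein (Bmb006945). Its intensity was 13264 in BmSCE RNAi, 19229 in BmESC RNAi, 8145 in BmPHO RNAi and 5475 in BmSCM RNAi, against 4249, 3800, 4613 and 3743 in EGFP RNAi. The log2 ratios reached 1.40 (BmSCE), 1.95 (BmESC), 0.84 (BmPHO) and 0.43 (BmSCM), so that 2-fold was passed in BmSCE and BmESC RNAi. All neighbours in the order BmESC, BmSCE, BmPHO, BmSCM differed by 0.41 to 0.55, beyond the spread of 0.13. In the Cy5 channels alone the order was kept, with 1.59 between BmESC and BmSCM RNAi. The 2 probes gave nearly the same ratio in BmSCE RNAi (sw09818 minus sw11611 of -0.04), and differed by -0.40 in BmESC RNAi, within the spread of sw09818, and by 0.49 in BmPHO and 0.93 in BmSCM RNAi. The last 2 differences depended on the processing. In the authors' values sw09818 and sw11611 read 1.09 and 1.15 in BmPHO RNAi, both past 2-fold, and with a floor of 200 they read 0.03 and 0.33 in BmSCM RNAi. A further probe named for FOXO, sw05105, was measured in BmESC RNAi alone, with 425 against 279 in EGFP RNAi and a log2 ratio of 0.32.

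**Figure D2:**
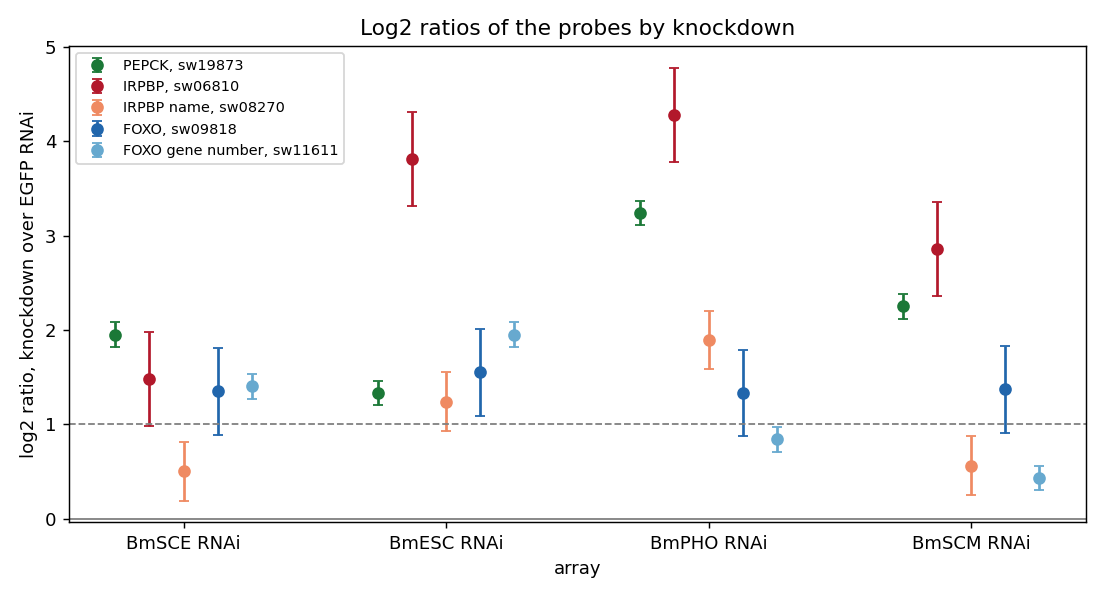
Log2 ratio of the knockdown over EGFP RNAi (vertical axis) for 5 probes on the 4 arrays. Bars are the SD of the EGFP RNAi channel over the 4 arrays for probes of like brightness and not a replicate error, and the dashed line marks 2-fold. sw09818 stays between 1.33 and 1.55, sw19873 and sw06810 peak in BmPHO RNAi at 3.24 and 4.28, and sw11611 peaks in BmESC RNAi at 1.95.

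Set side by side, PEPCK, IRPBP and sw11611 did not order the knockdowns alike, and sw09818 gave no order. PEPCK was highest in BmPHO RNAi and IRPBP in BmPHO and BmESC RNAi, which differed within its spread, while sw11611 was highest in BmESC RNAi and lowest in BmSCM RNAi. BmESC RNAi was the lowest knockdown for PEPCK, and BmSCE RNAi the lowest for IRPBP. Each comparison uses the EGFP RNAi channel of its own array, and these controls are the same treatment.

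The listed probes passed 2-fold on all arrays, 3 of 3, which is how they were chosen. Of all measured probes, the share past 2-fold upward was 2.43% (BmSCE), 4.46% (BmESC), 11.8% (BmPHO) and 9.46% (BmSCM). Of 6491 probes measured on every array, 49 (0.755%) passed it on all 4. The lowest values inside the rule were 1.33, for PEPCK in BmESC RNAi and for FOXO in BmPHO RNAi, and among the other probes of the same names the values nearest below it were 0.84 for sw11611 in BmPHO RNAi and 0.65 for sw18325 in BmESC RNAi.

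**Figure D3:**
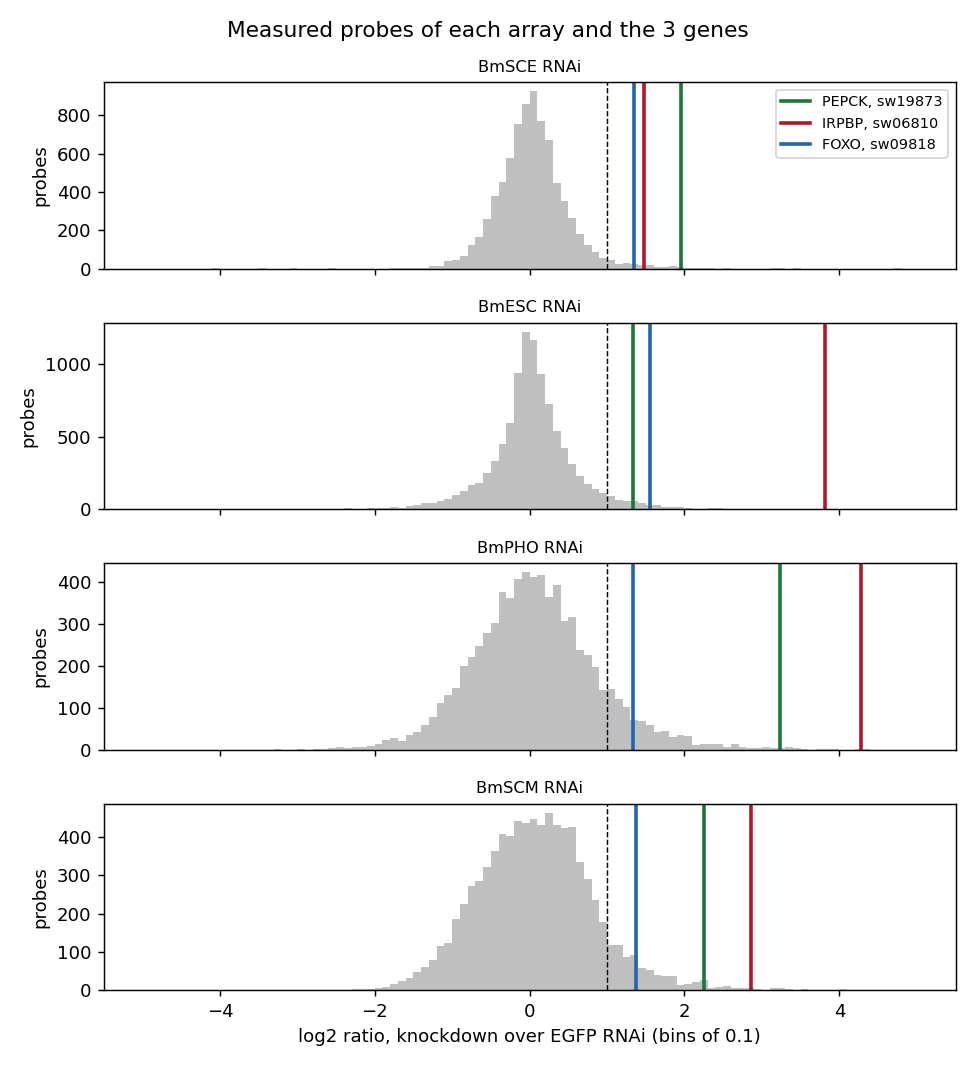
Number of measured probes (vertical axis) by log2 ratio of the knockdown over EGFP RNAi in bins of 0.1 (horizontal axis), 1 panel per array, with PEPCK in green, IRPBP in red and FOXO in blue. The dashed line marks 2-fold, and the wider grey distributions of BmPHO and BmSCM RNAi reach past FOXO, which stands at 1.33 and 1.37 there.

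Some probes followed a similar course over the 4 arrays, measured by the Euclidean distance between the 4 log2 ratios among 5387 probes with both channels at 400 or more on every array. Nearest to sw09818 were a match to UDP-galactose 4-epimerase (sw12918, distance 0.39), an enzyme of galactose use, a match to a BEL12 transposon polyprotein (sw18280, 0.43) and the nuclear hormone receptor E75 (sw11067, 0.43), an ecdysone response gene. E75 gave 1.50, 1.70, 1.57 and 1.07 under RNAi of BmSCE, BmESC, BmPHO and BmSCM. Nearest to PEPCK were sw21574, sw10111 and sw22450, at distances of 0.64 to 0.68, for which the array gives no protein name. For IRPBP, whose own control lies under 400, this choice of probes leaves out those with a dim control. Nearest to it, a second BEL12 match (sw19647) stood at 1.47, a match to GTP binding protein 2 (sw21987) at 1.69 and sw22450 at 2.56.

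The insulin and TOR list of 43 other probes, from hormone to TOR, had few measured members. They are too few for the counts to be read against the share over all probes. In BmSCE RNAi 0 of 13 rose and 0 fell, in BmESC RNAi 2 of 15 rose and 0 fell, in BmPHO RNAi 2 of 12 rose and 1 fell, and in BmSCM RNAi 0 of 13 rose and 0 fell. Over all measured probes 2.43%, 4.46%, 11.8% and 9.46% rose on these arrays, and 1.11%, 3.25%, 7.84% and 6.29% fell. With both channels required to reach 400 the list had 1 risen probe in BmESC RNAi and 0 in BmPHO RNAi. The median log2 ratios were 0.08, 0.14, -0.14 and 0.03, beside 0.02, 0.02, 0.05 and 0.07 over all measured probes. The second IRPBP probe sw08270 is 1 of the 2 risen probes in both BmESC and BmPHO RNAi.

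Among the receptors, a match to an insulin-like peptide receptor of the honeybee (sw12115) was bright and rose in BmESC RNAi. Its intensity was 6637, 10885, 3491 and 3507 under RNAi of BmSCE, BmESC, BmPHO and BmSCM, against 3474, 2827, 3681 and 3043 in EGFP RNAi. The log2 ratios were 0.71, 1.56, -0.08 and 0.03. The receptor match was thus highest in BmESC RNAi and second in BmSCE RNAi, with BmPHO and BmSCM RNAi near 0. The probes named for the silkworm insulin receptor itself were not measured on any array.

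Downstream of the receptor most measured core members stayed within 2-fold. A match to the regulatory subunit of phosphoinositide 3-kinase (sw21185) gave 0.03, -0.54, -0.16 and -0.44, and a match to the kinase itself (sw19721) -0.02, -0.12, -0.42 and -0.28. A match to PDK1 (sw03621), the kinase that activates Akt, gave 0.12, 0.66, 0.18 and 0.38. A match to the insulin receptor substrate (sw03614), which links the receptor to the kinase, was measured in BmESC RNAi alone, at -0.02. No probe matched to Akt was measured, and no probe of the list was named for 4E-BP or S6 kinase. For TOR a match (sw14886) was measured in BmPHO RNAi alone, with an intensity of 403 against 169 in EGFP RNAi and a log2 ratio of 1.00. Of the bombyxins, the insulin-like hormones of the silkworm, bombyxin B-8 (sw22506) was measured on every array and gave -0.39, 0.20, -1.01 and -0.81. In BmPHO RNAi its intensity was 292 against 501 in EGFP RNAi, which bounds the difference at 1.52-fold or more, and the log2 ratio was -0.78 both with median centring and in the authors' values.

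Among the 14 other probes of the forkhead family, the DNA-binding family to which FOXO belongs, 1, 4, 3 and 2 were measured under RNAi of BmSCE, BmESC, BmPHO and BmSCM. A match to Forkhead box K1 (sw15291) went the other way from FOXO. Its intensity was 1440, 1287, 567 and 716 in the knockdowns, against 2275, 1837, 1661 and 1514 in EGFP RNAi, and its log2 ratios were -0.87, -0.89, -1.69 and -1.53. It fell past 2-fold in BmPHO and BmSCM RNAi, where 7.84% and 6.29% of all measured probes did so, as did 1.11% in BmSCE and 3.25% in BmESC RNAi. A match to forkhead factor Q2 (sw02083) gave 0.29 (BmESC), 1.23 (BmPHO) and 0.89 (BmSCM), and was not measured in BmSCE RNAi. Its EGFP RNAi intensity on the BmPHO array was 252, which bounds the rise there at 1.61-fold or more. The BmSCM value was 1.42 with median centring, 1.06 with print block loess and 1.15 in the authors' values.

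In gluconeogenesis and glycolysis, PEPCK stood apart from the 33 other probes of the list. Of those, 1 of 19 rose in BmSCE RNAi and 0 rose on the other arrays, while 0 of 19, 1 of 22, 1 of 19 and 1 of 19 fell under RNAi of BmSCE, BmESC, BmPHO and BmSCM. Of all measured probes, 2.43%, 4.46%, 11.8% and 9.46% rose on these arrays, and 1.11%, 3.25%, 7.84% and 6.29% fell. The list medians were -0.04, 0.04, 0.12 and -0.35. On every array PEPCK lay above the highest other member, which stood at 1.46, 0.89, 0.95 and 0.40, a relation to which its choice contributed.

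The probe that fell in 3 knockdowns was fructose-1,6-bisphosphatase (sw04448), which removes a phosphate later on the same path to glucose. Its intensity was 701, 372, 263 and 514 under RNAi of BmSCE, BmESC, BmPHO and BmSCM, against 746, 793, 855 and 951 in EGFP RNAi. The log2 ratios were -0.31, -1.40, -1.91 and -1.44. Since the BmESC and BmPHO values were under 400, the fold was set against the higher of the probe's own Cy5 level and the lowest among probes at 400. By that rule the probe was at least 2.54-fold lower in BmPHO RNAi. In BmESC RNAi its own level was the higher, so 2.64-fold is the measured fold and not a bound. There the log2 ratio was -1.29 with median centring and -1.16 in the authors' values. Pyruvate carboxylase (sw01281), the enzyme that makes the oxaloacetate PEPCK uses, read 3492, 2950, 2060 and 2327 in the knockdowns, against 3464, 3686, 3613 and 2894 in EGFP RNAi, with log2 ratios of -0.20, -0.70, -0.84 and -0.53. It stayed within 2-fold on all arrays.

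The shared glycolytic enzymes stayed within 2-fold. Enolase gave 0.20, 0.10, 0.12 and -0.35 (sw19274) and -0.04, 0.24, 0.07 and -0.35 (sw19290). Pyruvate kinase, which consumes the product of PEPCK, gave -0.14, -0.40, 0.16 and -0.31 (sw21897) and -0.32, -0.65, 0.30 and -0.29 (sw22892). Glyceraldehyde-3-phosphate dehydrogenase (sw03207) gave 0.77, -0.12, 0.12 and 0.22. The member that rose in BmSCE RNAi was a probe of lactate dehydrogenase (sw22967), which exchanges pyruvate and lactate. It gave 1.46 there, with an intensity of 5601 against 1755 in EGFP RNAi, and 0.69, 0.95 and 0.40 in the other knockdowns. A brighter lactate dehydrogenase match (sw18743) gave 0.0, 0.09, 0.17 and -0.12.

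**Figure D4:**
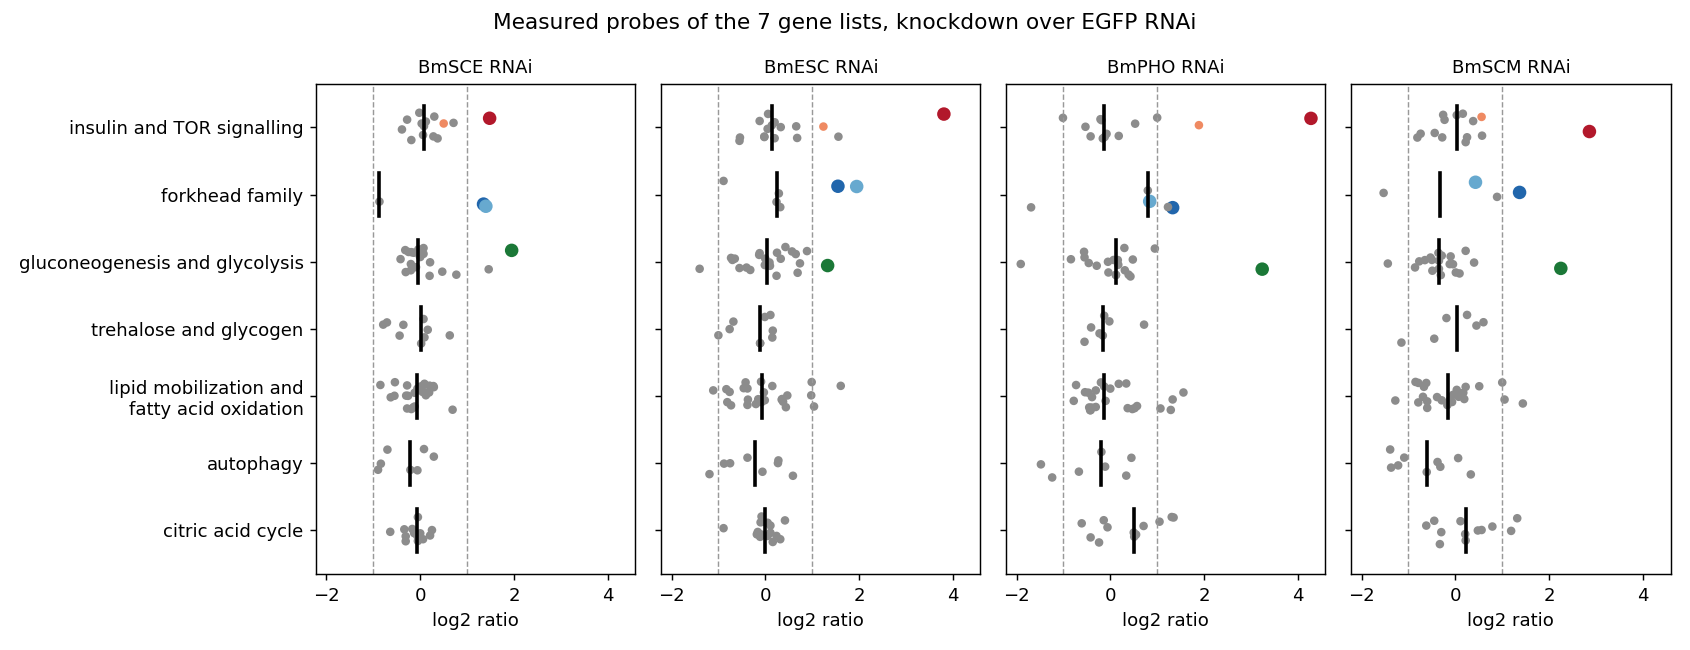
Log2 ratio of the knockdown over EGFP RNAi (horizontal axis) of the measured probes of 7 gene lists (rows), 1 panel per array, with the median of the other probes as a black bar and 2-fold as dashed lines. PEPCK is large and green, IRPBP large and red (its second probe small and orange), FOXO sw09818 dark blue and sw11611 light blue. PEPCK lies right of every other gluconeogenesis and glycolysis probe on each array, while the list medians run from -0.35 to 0.12.

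The gene lists were also counted together. Over the 7 lists together, which hold 199 other probes, BmSCE RNAi raised 1 of 87 measured (1.15%), BmESC RNAi 4 of 101 (3.96%), BmPHO RNAi 10 of 85 (11.8%) and BmSCM RNAi 4 of 86 (4.65%). These shares were at or below those of all measured probes given above. Those fallen were 0, 4, 5 and 8, or 0%, 3.96%, 5.88% and 9.3% of the measured members. Of all measured probes, 1.11%, 3.25%, 7.84% and 6.29% fell, so the list share was above that of all probes in BmESC and BmSCM RNAi. In the citric acid cycle, whose oxaloacetate PEPCK draws on, 3 of 12 rose in BmPHO RNAi, as did 2 of 12 in BmSCM RNAi, beside 11.8% and 9.46% of all measured probes. In the authors' values 1 rose in BmPHO RNAi and 2 in BmSCM RNAi. A match to citrate synthase (sw17936) read 1641, 2239, 3238 and 2999 in the knockdowns, against 1479, 1283, 1221 and 1066 in EGFP RNAi, with log2 ratios of -0.06, 0.42, 1.35 and 1.19. A match to malate dehydrogenase (sw14808) gave 0.25, 0.11, 1.31 and 1.32. Both sw17936 and sw14808 lay past 2-fold in BmPHO and BmSCM RNAi and within it in the other knockdowns. The exception was sw14808 in BmPHO RNAi, with 0.99 by print block loess and 0.86 in the authors' values. The brighter probe named for silkworm cytosolic malate dehydrogenase (sw06088) stayed within 2-fold, at -0.17, -0.18, -0.24 and -0.33.

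For hormones and stores, the adipokinetic hormone precursor (sw09642), the insect counterpart of glucagon in fuel release, gave 0.12, 0.44, 1.33 and 1.44, and a match to 3-ketoacyl-CoA thiolase (sw13503) of fatty acid oxidation gave 0.20, -0.20, 1.07 and 1.05. In the authors' values the thiolase match read 0.85 in BmPHO and 0.91 in BmSCM RNAi. With print block loess it read 0.99 in BmPHO RNAi. Of the matches to mitochondrial 3-oxoacyl-CoA thiolase, sw12385 gave -0.06, 0.47, 0.37 and -0.15. Another, sw19273, gave 0.13 (BmSCE), 0.15 (BmESC) and 0.34 (BmPHO). In the list of lipid mobilization and fatty acid oxidation 0 of 25, 2 of 27, 4 of 25 and 2 of 25 measured probes rose. Those fallen were 0, 1, 0 and 1. Of all measured probes, 2.43%, 4.46%, 11.8% and 9.46% rose and 1.11%, 3.25%, 7.84% and 6.29% fell. A match to glycogen phosphorylase (sw20784), which releases sugar from glycogen, gave -0.79, -1.0, -0.23 and -1.15. With median centring, with print block loess and in the authors' values it stayed within 2-fold. These gave -0.94 to -0.78 in BmESC RNAi and -0.99 to -0.85 in BmSCM RNAi. In autophagy 0 of 7, 8, 7 and 9 measured probes rose, beside 2.43%, 4.46%, 11.8% and 9.46% of all measured probes. Those fallen were 0, 1, 2 and 4, beside 1.11%, 3.25%, 7.84% and 6.29% of all measured probes. Of the matches to autophagy 7, an enzyme needed to form autophagosomes, sw15472 gave -0.84, -0.75, -1.24 and -1.37, past 2-fold in BmPHO and BmSCM RNAi, and sw15473 gave -0.70, -0.88, -0.67 and -1.22, past it in BmSCM RNAi. A further match, sw17053, gave -1.19 (BmESC), -1.48 (BmPHO) and -1.39 (BmSCM) and was not measured in BmSCE RNAi. With median centring all these matches were within 2-fold in BmSCM RNAi, at -0.89, -0.75 and -0.92. Their knockdown intensities, 245 to 392, lay under 400, so these ratios are not exact.

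The line was checked for markers of other tissues. Of the ovary markers, piwi (sw00065) and aubergine (sw10899), proteins of the germline small RNA pathway, were measured on every array, and 3 of 6 probes, each named for nanos, on none. The log2 ratios were -0.43, -0.28, 0.84 and 0.54 for piwi and -0.71, -0.67, -1.07 and -0.20 for aubergine. Aubergine was the brightest ovary probe, at 4464 to 8026 in the knockdowns and 8943 to 11030 in EGFP RNAi. It therefore weighs most in the ovary sum given below. Of 27 fat body probes 23, vitellogenin and the storage proteins SP1 and SP2 among them, were measured on no array. A fat body probe with log2 ratios past 2-fold on every array, as FOXO, PEPCK and IRPBP had, was a match to the arylphorin alpha subunit (sw06703), a storage protein of fat body. It gave 1.21, 2.11, 1.73 and 2.02, with intensities of 821 to 1974 in the knockdowns against 237 to 342 in EGFP RNAi. As bounds, it was at least 1.83-, 3.57-, 2.11- and 3.52-fold higher, so 2-fold was not secured in BmSCE RNAi. The other measured fat body probes, 30K lipoprotein matches (sw20980, sw09130 and sw17422), stayed between -0.23 and 0.72. The summed normalized level of the fat body probes was 9330 to 13392 in the knockdowns and 8528 to 9077 in EGFP RNAi, and that of 57 midgut probes, 44 of them measured on no array, was 23374 to 33142 and 19361 to 21415. Of the midgut trypsins, sw21893 gave 0.49, 0.36, 1.04 and 1.26, and sw07712 gave 0.61 (BmESC), 2.03 (BmPHO) and 1.14 (BmSCM). In the authors' values sw21893 read 0.43 (BmPHO) and 0.69 (BmSCM), within 2-fold. It was the brightest midgut probe, at 14216 to 19614 in the knockdowns and 8364 to 9016 in EGFP RNAi, so it weighs most in the midgut sum. Of the other trypsins measured on every array, sw17992 gave 0.57, 0.46, 0.71 and 0.79, and sw20530 gave 0.09, 0.36, -0.57 and -0.54. The summed level of 16 haemocyte probes, 10 of them measured on no array, was 5465 to 6389 in the knockdowns and 4600 to 6103 in EGFP RNAi, and hemocytin (sw01358) among them gave 0.94, 1.38, 1.22 and 0.51, the BmPHO value being 0.63 in the authors' values. A further hemocytin match measured on every array (sw20285) gave -0.21, 0.13, 0.18 and 0.07. Prophenoloxidase-2 (sw05534), a melanization enzyme of haemocytes, gave -0.06, -1.01, -0.14 and -1.08, and with median centring its BmESC value was -0.85. The prophenoloxidase subunit 1 probes sw17550 and sw19955 stayed between -0.06 and 0.58. For 8 silk gland probes, 6 of them measured on no array, the sums were 1247 to 2432 and 1091 to 2310, with fibroin P25 (sw12944) at -0.11, 0.27, 1.19 and 0.53. For 23 muscle probes, 12 of them measured on no array, they were 6731 to 7294 and 7637 to 8878, and for the ovary probes 7291 to 10269 and 11146 to 12224, in the knockdowns and in EGFP RNAi. Their part in the ratios was not tested. In RNA of whole cultures, more cells with a transcript and more RNA per cell cannot be told apart.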

How the data were processed

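Each of the 4 arrays held 24288 spots in 48 print blocks: 23229 gene probes, 677 positive controls and 382 blank or empty spots. The Cy5 and Cy3 intensity columns were deposited by the authors with local background already subtracted and the dyes not set against each other. The ratio column deposited by the authors is Cy5 over Cy3 after their normalization, and the deposited series table holds its log2 values. The image software, the normalization method and the rule of the spot flag were not given in the sources used here. Checked on the values, the flag was set where the brighter channel was at least 400.

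Intensities under 100 were set to 100, and a loess curve of the log2 ratio over brightness, fitted to gene probes, was subtracted per array with limma 3.58.1 in R 4.3.3. The procedure was tested on simulated data with changes placed in bright probes only, so it was not tested for probes as dim as FOXO. For levels per channel, Aquantile normalization followed. Tables used Python 3.11.15, numpy 2.4.6 and pandas 2.3.3, and plots matplotlib 3.10.9. A probe rose or fell past 2.0-fold, the threshold of the study's methods. With 1 array per knockdown no p-value was computed, and intensity limits the precision.

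The 3 probes, the gene lists and the comparisons were chosen with earlier results of these data known. Lists were made by words in the array annotation. Besides the 3 probes, the text names other probes with the same gene number or name, the 3 nearest probes of each, list members past 2-fold on at least 2 arrays, and core enzymes and kinases whatever their values, of which one is not reported here. List members named for a rise or fall on 1 array, the receptor match, the bombyxin, Q2, lactate dehydrogenase, sw15473 and fibroin P25, were chosen after their values were seen. The further marker probes of fat body, midgut and haemocytes were also chosen with their values known. So were the further probes of malate dehydrogenase, lactate dehydrogenase and thiolase. The alternatives were other floors, an offset of 50, median centring, loess within print blocks, the authors' ratios, single-channel quantile normalization and a cutoff of 400 in both channels.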

Additional observations from a re-analysis of the deposited data

How the results depend on the processing

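No paired analysis was possible because each knockdown has 1 array and the labels carry no replicate numbers. For the same reason no replicate could be left out, and the cause of the changes below was not tested. Of 84 alternative log2 ratios of the 3 listed probes, 81 stayed past 2-fold. The exceptions were FOXO in BmSCM RNAi with a floor of 200 (0.03) and in BmSCE RNAi in the authors' values (0.99), and IRPBP in BmSCE RNAi with a floor of 200 (0.86). By more than the spread of the control channel, and still past 2-fold, FOXO in BmSCM RNAi moved to 1.90 with median centring, IRPBP in BmSCM RNAi to 2.16 with a floor of 200, PEPCK in BmESC RNAi to 1.52 with median centring, in BmSCM RNAi to 2.03 with print block loess, in BmPHO RNAi to 3.05 with single channels, and in the authors' values to 2.09 in BmSCE and 3.41 in BmPHO RNAi. The FOXO gene probe sw11611 moved to 2.14 (median centring) and 2.12 (the authors' values) in BmESC RNAi, to 1.13 (print block loess) and 1.15 (the authors' values) in BmPHO RNAi, and to 0.60 (the authors' values) in BmSCM RNAi. The difference between the highest and lowest knockdown moved for PEPCK to 1.67 with median centring, 2.15 in the authors' values and 1.59 in Cy5 alone, for sw11611 to 1.74 with median centring, and for FOXO sw09818 to -0.25 in Cy5 alone.

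With both channels at 400 or more, which leaves out FOXO and IRPBP, risen probes numbered 110, 264, 449 and 405 under RNAi of BmSCE, BmESC, BmPHO and BmSCM, and those fallen in BmSCE RNAi 55. Median centring gave 49 fallen in BmSCE RNAi, and 1519 risen and 266 fallen in BmSCM RNAi. Over the 7 lists, median centring gave 7 risen and 2 fallen in BmESC RNAi and 8 risen and 2 fallen in BmSCM RNAi, the authors' values gave 2 risen in BmESC RNAi, and both channels at 400 gave 2 fallen in BmESC RNAi, 5 risen and 1 fallen in BmPHO RNAi and 3 fallen in BmSCM RNAi.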
